A study of Mus musculus with 6 samples.

Results

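The 10 genes described here encode proteins that granulocytes make and store: Mpo, Elane, Prtn3 and Ctsg of the primary granules, Lyz2, and the later neutrophil genes S100a8, S100a9, Ltf, Ngp and Camp. They were chosen by name from 38926 gene symbols, for what their proteins are, with earlier results of these data known. They were compared between 3 control and 3 Dpy30 knockout samples of hematopoietic stem cells (HSCs) sorted from mouse fetal liver at stage E14.5. Control embryos had the genotype Vav-Cre; Dpy30F/+ and knockout embryos Vav-Cre; Dpy30F/-, where F is a floxed allele. Vav-Cre is a Cre transgene active in blood-forming cells and was carried by both groups, so the controls could also lose 1 allele and stand for heterozygous cells. Dpy30 encodes a core subunit of the complexes that methylate lysine 4 of histone H3. Each of 3 litters gave 1 control and 1 knockout, and samples are numbered by litter. The labels do not say whether a sample came from 1 embryo or several.

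Granulocyte granules are filled in order as the cells mature. Primary (azurophil) granules form at the promyelocyte stage and hold myeloperoxidase and the serine proteases neutrophil elastase, proteinase 3 and cathepsin G. Secondary (specific) granules form later, at the myelocyte stage, and hold lactoferrin, cathelicidin and neutrophilic granule protein, while the calcium-binding proteins S100A8 and S100A9 fill the cytosol of neutrophils and monocytes. Mpo and the protease genes are already transcribed in early myeloid progenitors, and Lyz2 is transcribed from those progenitors through to macrophages. The transcription factors PU.1 and C/EBPα, and C/EBPε at the later stage, are known regulators of these genes.

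The members fall into a few genomic groups (GRCm38, GENCODE M21). Prtn3 (chromosome 10, 79874476 to 79883174) and Elane (chromosome 10, 79886247 to 79888215) are neighbours on the plus strand with 3072 bases between them. S100a8 (chromosome 3, 90668978 to 90670035) and S100a9 (chromosome 3, 90692632 to 90695721) lie 22596 bases apart on opposite strands. Camp (109847379 to 109849617), Ngp (110419747 to 110423012) and Ltf (111019271 to 111042767) follow each other on chromosome 9 with gaps of 570 and 596 kilobases. Mpo is on chromosome 11 (87793581 to 87804413), Ctsg on chromosome 14 (56099881 to 56102574) and Lyz2 on chromosome 10 (117277331 to 117282321). All 10 are protein-coding.

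Promoter sequence was read because the primary granule genes moved together across the samples, as described further on. The stretches shown come from the 250 bases before each gene's RefSeq start (GRCm38.p6), 5′ to 3′ on the gene's own strand, up to 45 bases on each side of a match and without annotated exon sequence. The RefSeq starts used for Mpo, Elane, Prtn3, Ltf and Ngp lie inside the longer GENCODE genes, so distances to the start depend on the annotation. In the 4 primary granule promoters the capitals mark AGGAAGT, a core that PU.1 and other ETS factors bind.
Mpo (chr11:87793534-87793580, plus strand): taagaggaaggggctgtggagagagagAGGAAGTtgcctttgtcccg
Elane (chr10:79886183-79886246, plus strand): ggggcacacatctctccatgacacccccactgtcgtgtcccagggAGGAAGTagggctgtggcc
Prtn3 (chr10:79879528-79879613, plus strand): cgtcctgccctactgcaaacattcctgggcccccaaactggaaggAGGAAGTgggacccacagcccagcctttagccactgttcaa
Ctsg (chr14:56102729-56102824, minus strand): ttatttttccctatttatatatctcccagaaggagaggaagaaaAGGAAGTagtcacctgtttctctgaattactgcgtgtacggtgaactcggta

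In 2 later genes with a shared pattern across samples, Ltf and Ngp, the capitals mark TTGCNNAA read on either strand, a form of the C/EBP site.
Ltf (chr9:111019172-111019269, plus strand): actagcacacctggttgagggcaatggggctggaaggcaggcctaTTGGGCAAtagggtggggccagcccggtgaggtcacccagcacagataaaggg
Ngp (chr9:110419625-110419722, plus strand): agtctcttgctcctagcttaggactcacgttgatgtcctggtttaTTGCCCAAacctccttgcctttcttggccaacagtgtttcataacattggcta

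Motifs were searched on both strands in the 250 bases before the start of all 10 members and in 32536 such windows of the RefSeq table, and their letters were chosen with the members' promoters in view. AGGAAGT was present in 4 of the 4 primary granule genes, in Lyz2 and in 1 of the 5 later genes (S100a8), against 7.7% of all windows. It began 84 and 94 bases before the RefSeq start of Elane and Prtn3, and 223 and 206 bases before that of Mpo and Ctsg. TTGCNNAA was present in none of the 4 primary genes and in 3 of the 5 later genes (S100a9, Ltf and Ngp), against 9.57% of all windows. The RUNX motif TGTGGT was found in Ctsg, Lyz2 and S100a9 (14% of windows) and the MYB motif AACGG in Elane and Prtn3 (14.4%). Camp held none of the 4 motifs in this window. These matches describe sequence only, since no binding was measured.

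Counts assigned to genes totalled 31897737 to 43394700 per library, and mitochondrially encoded genes took 67.7% of them in control 1 and 49.2% to 57.3% in the other libraries. Genes detected numbered 14674 and 13972 in knockouts 2 and 3, and 16149 to 17241 in the other 4. Control 1 was the lowest library, and knockout 3 the highest, for all 4 primary granule genes. The part of these library differences in the granule values was not tested. Dpy30 had control counts of 712, 904 and 1395 (litters 1 to 3) and knockout counts of 315, 216 and 478. HSC markers fixed as a list were all detected, and 16 of 16 passed the count filter. Their summed level was 982 to 1076 CPM (counts relative to the scaled library size) in controls, 1195 and 1274 CPM in knockouts 1 and 2, and 612 CPM in knockout 3. Knockout 3 thus stood apart from the other 5 libraries in the summed level of these markers. Not every marker followed the sum, since 1 of the 16 was higher in every knockout than in every control (6.39% of genes tested). Among those markers, chosen for naming after their values were seen, Hlf had 954 counts in knockout 3 against 4901 to 8343 elsewhere. Fold changes and counts of calls are therefore also given without knockout 3. In bulk RNA, more cells of a granulocytic type and more granule transcript per cell cannot be told apart.

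The members were transcribed at low to moderate levels in these HSC samples. Per kilobase of exon, Lyz2 was the highest in both genotypes, at 55.3 ± 18.5 CPM per kilobase for the control group and 268 ± 240 for the knockout group (mean ± SD of 3, as for every ± here). In controls S100a9 (17.6 ± 4.82 CPM per kilobase) and Mpo (15.02 ± 9.50) came next, and they did not differ beyond their spread. S100a8 (6.43 ± 4.20), Elane (4.595 ± 4.54), Ngp (4.14 ± 7.18, from control 1 alone), Prtn3 (2.18 ± 1.32) and Ctsg (1.95 ± 2.25) followed, each within the spread of its neighbour. Ltf (0.300 ± 0.520) and Camp (0.0456 ± 0.0789) were the lowest. In the knockouts the order of these per-kilobase means, over the 7 genes that passed the count filter, was Lyz2, S100a8 (43.9 ± 43.7), Elane (40.9 ± 56.2), S100a9 (33.8 ± 46.9), Mpo (26.6 ± 14.4), Ctsg (10.8 ± 11.9) and Prtn3 (5.85 ± 3.07). The knockout SDs of Elane, S100a9 and Ctsg exceeded their means.

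**Figure D1:**
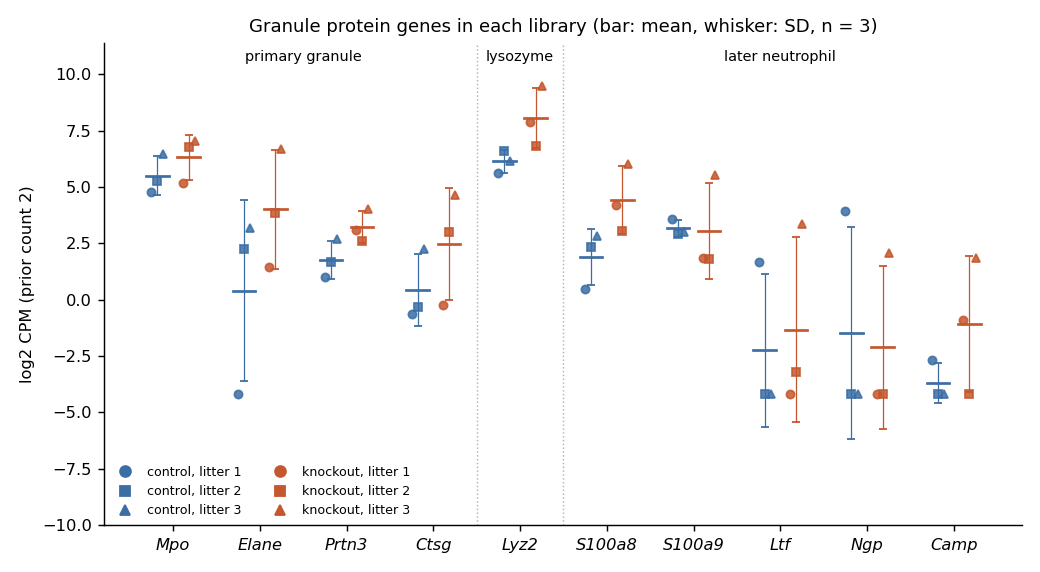
Log2 CPM (prior count 2) of the 10 genes in each of the 6 libraries, by class, with control in blue and knockout in orange, the litter by symbol, and bars and whiskers for the mean and SD of 3. The primary granule genes and Lyz2 sit higher in each litter's knockout, knockout 3 (orange triangle) is the highest of the 6 for 9 of the 10 genes, and Ltf and Ngp are near the floor in most libraries.

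All 7 members that passed the count filter had a positive log2 fold change, where 50.8% of the 13646 genes tested did, and 5 of the 7 had one above 1 (13.5% of genes tested). Without knockout 3 these counts were 6 of 7 (49.4%) and 3 of 7 (11.8%). By edgeR's quasi-likelihood test 0 of the 7 passed an adjusted p of 0.05, and 0% of all genes tested did. At an unadjusted p under 0.05, edgeR had 2 of the 7, Lyz2 and S100a8 (4.26% of genes tested, counting those higher in the knockout), and without knockout 3 it had 1, Lyz2 (4.23%). DESeq2 called 1 of the 7, Lyz2 (0.762% of genes tested). With litter as a block, which pairs each knockout with the control of its litter, edgeR again called 0 members and 0% of all genes. In that fit 4 of the 7, Mpo, Elane, Lyz2 and S100a8, had an unadjusted p under 0.05 (2.73%). DESeq2 with the block called 3 of the 7, Elane, Lyz2 and S100a8 (1.13%). Without knockout 3, DESeq2 called 0 of the 7 (0.85% of genes tested) and with the block also 0 of the 7 (0.498%). The adjusted p of Lyz2 in DESeq2 was then 0.0716, and in the blocked fit those of Elane, Lyz2 and S100a8 were 0.130, 0.237 and 0.399. The median log2 fold change over the 7 was 2.28, and 0.93 without knockout 3, beside 0.01 and -0.01 over all genes tested.

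All 4 primary granule genes were higher in the knockout than in the control of the same litter in all 3 litters, as were 12.3% of genes tested. The 4 genes come from the same 3 pairs of samples and are not separate replicates. Mpo encodes myeloperoxidase, which makes hypochlorous acid from hydrogen peroxide and chloride. It had control counts of 786, 1449 and 3898 (litters 1 to 3) and knockout counts of 1416, 3918 and 4554, with group levels of 51.4 ± 32.5 and 91.2 ± 49.4 CPM (mean ± SD of 3). The groups overlapped, since control 3 (88.4 CPM) lay above knockout 1 (35.6 CPM). EdgeR estimated a log2 fold change of 0.83 (SE 0.57, adjusted p = 0.861), and the differences within litters 1 to 3 were 0.39, 1.48 and 0.56 on the log2 CPM scale. Without knockout 3 the log2 fold change was 0.49.

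Elane encodes neutrophil elastase and had the largest fold change of the 7 with all samples, a rank it lost without knockout 3. Elane had control counts of 0, 173 and 394 (litters 1 to 3) and knockout counts of 107, 518 and 3631, with group levels of 4.52 ± 4.47 and 40.2 ± 55.3 CPM (mean ± SD of 3). Most of that knockout mean came from knockout 3, at 103.7 CPM, while knockout 1 (2.69 CPM) lay below controls 2 and 3 (4.63 and 8.94 CPM). The 0 in control 1 allows a level of up to 0.104 CPM, that of 3 counts. EdgeR estimated a log2 fold change of 3.15 (SE 1.69, adjusted p = 0.797) and 0.92 without knockout 3 (adjusted p = 0.949). With litter as a block it was 3.48 in edgeR (adjusted p = 0.953) and 3.63 in DESeq2 (adjusted p = 0.000998), where DESeq2 without the block gave an adjusted p of 0.748.

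Prtn3 encodes proteinase 3, the protease made from the gene next to Elane. Prtn3 had control counts of 56, 115 and 279 (litters 1 to 3) and knockout counts of 331, 216 and 564, with group levels of 3.78 ± 2.28 and 10.1 ± 5.31 CPM (mean ± SD of 3). Only knockout 2 (5.95 CPM) lay within the range of the controls, whose highest value was 6.33 CPM. EdgeR estimated a log2 fold change of 1.42 (SE 0.77, adjusted p = 0.797), and 0.93 without knockout 3. Ctsg, which encodes cathepsin G, had control counts of 17, 28 and 207 (litters 1 to 3) and knockout counts of 31, 287 and 867. Its level was 2.01 ± 2.33 CPM for the control group and 11.2 ± 12.3 CPM for the knockout group (mean ± SD of 3). It was below 1 CPM in both samples of litter 1 and in control 2, and knockout 1 (0.780 CPM) lay below control 3 (4.70 CPM), so the groups overlapped. EdgeR estimated a log2 fold change of 2.47 for Ctsg (SE 1.34, adjusted p = 0.797), and 1.12 without knockout 3.

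The primary granule genes shared their extreme samples. Among the controls all 4 were highest in control 3, all 4 were lowest of the 6 libraries in control 1, and all 4 were highest of the 6 in knockout 3. Their summed level by litter was 29.7, 47.2 and 108 CPM for the control and 47.4, 136 and 275 CPM for the knockout. That sum, in which Mpo weighs most, was lowest in litter 1 and highest in litter 3 in both genotypes. The middle of the order differed between genes, since knockout 1 lay above knockout 2 for Prtn3 and below it for the other 3. In the sum the knockout stood above the control by 1.60-fold, 2.88-fold and 2.53-fold within litters 1 to 3. The genotypes overlapped when litters were ignored, and 0 of the 4 genes had every knockout above every control. Without knockout 3 the median log2 fold change of the 4 was 0.92, against 1.94 with all samples. Control 3 was the control that moved it most, to 3.03 when left out.

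The make-up of the primary granule transcripts differed in knockout 3. Per kilobase, Elane stood at 0.415 and 0.352 of Mpo in controls 2 and 3, at 0.263 and 0.460 in knockouts 1 and 2, and at 2.77 in knockout 3. Ctsg stood at 0.0641 to 0.176 of Mpo in controls, at 0.0726 and 0.243 in knockouts 1 and 2, and at 0.631 in knockout 3. Prtn3 stood at 0.141 to 0.157 of Mpo in controls and at 0.462, 0.109 and 0.245 in knockouts 1 to 3. Elane and Ctsg were thus highest relative to Mpo in knockout 3, and Prtn3 in knockout 1. These ratios were chosen after their values were seen and carry no test.

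**Figure D2:**
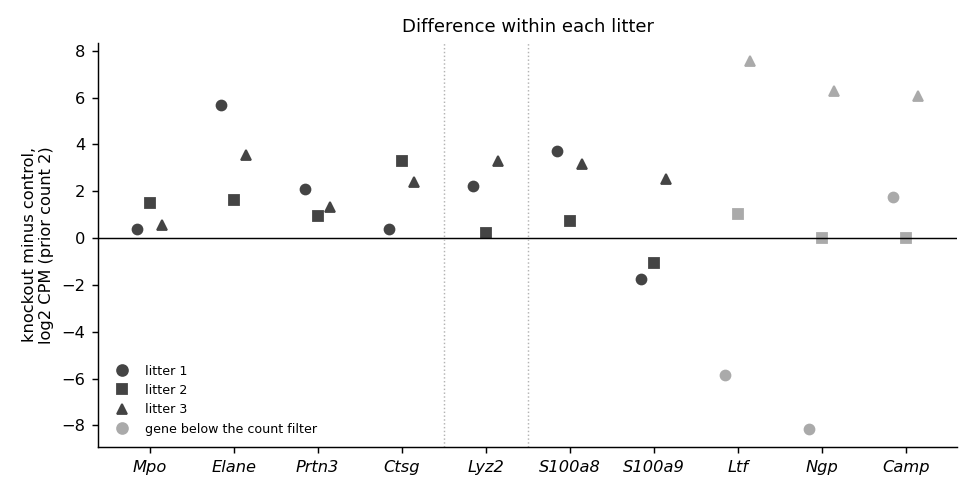
Knockout minus control in log2 CPM (prior count 2) for each gene within each litter, with the 3 genes below the count filter in grey. The 4 primary granule genes, Lyz2 and S100a8 lie above 0 in all 3 litters, whereas S100a9, Ltf and Ngp lie on both sides of it.

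Lyz2, the lysozyme gene of myeloid cells, was higher in every knockout than in every control. It had control counts of 1423, 3656 and 3156 (litters 1 to 3) and knockout counts of 9249, 4131 and 24901, with group levels of 72.8 ± 24.3 and 353 ± 316 CPM (mean ± SD of 3). The separation was narrow in litter 2, where knockout 2 had 113.8 CPM and control 2 had 97.8 CPM. EdgeR estimated a log2 fold change of 2.28 (SE 0.63, adjusted p = 0.644; DESeq2 adjusted p = 0.00772) and 1.26 without knockout 3 (edgeR adjusted p = 0.572). The blocked fits gave 1.95 in edgeR (adjusted p = 0.953) and 1.97 in DESeq2 (adjusted p = 0.00438). Reads with more than 1 alignment were not given to genes, so any shared with the neighbouring copy Lyz1, which had 0 to 10 counts per library, would be missing from the Lyz2 counts.

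Lyz2 is also a macrophage gene, and markers of macrophages and monocytes were present in all 6 libraries. Of 20 such markers 18 passed the count filter, and 16 of those 18 had a positive log2 fold change (50.8% of genes tested). The median was 1.21. Their summed level was 342 to 560 CPM in controls and 312 to 1224 CPM in knockouts, with the highest value in knockout 3. None of the 20 was at 0 in all libraries. The sum was lowest in knockout 2, where Mrc1 had 26.4 CPM against 180 to 366 CPM elsewhere. Vcam1 had 2.31 CPM there, against 22.4 to 50.9 CPM in the other libraries. Mrc1 weighed most in the control 2 sum, with 359 CPM. Other markers went the other way, with Csf1r, C1qb and Cd68 at 92.4, 30.9 and 23.7 CPM in knockout 2. Their highest controls were at 39.1, 12.7 and 7.25 CPM. All these genes were named after their values were seen. Of the 18 tested markers, 8 were higher in the knockout in all 3 litters (12.3% of genes tested). Without knockout 3, 15 of 18 kept a positive log2 fold change (49.4% of genes tested). The part of macrophage RNA in the Lyz2 difference was not tested.

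Of the 5 later neutrophil genes, S100a8 shared these extremes: it was lowest of the 6 libraries in control 1, highest of the controls in control 3 and highest of all in knockout 3. The other 4 were highest of the controls in control 1. S100a8 encodes a subunit of calprotectin, the metal-binding pair that S100A8 forms with S100A9. It had control counts of 39, 184 and 314 (litters 1 to 3) and knockout counts of 721, 300 and 2276, with group levels of 4.46 ± 2.91 and 30.5 ± 30.3 CPM (mean ± SD of 3). Every knockout was above every control, with knockout 2 (8.27 CPM) closest to control 3 (7.12 CPM). EdgeR estimated a log2 fold change of 2.77 (SE 0.91, adjusted p = 0.709; DESeq2 adjusted p = 0.0597) and 1.58 without knockout 3. With the litter block DESeq2 gave 2.63 (adjusted p = 0.0122).

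S100a9, which encodes the partner subunit, had control counts of 349, 277 and 355 (litters 1 to 3) and knockout counts of 141, 126 and 1607. In CPM the controls were at 12.05, 7.41 and 8.05, and the knockouts at 3.55, 3.47 and 45.9. Knockouts 1 and 2 were thus below every control and knockout 3 above all of them. The log2 fold change was 0.94 with all samples (SE 1.002; edgeR adjusted p = 0.910) and turned to -1.37 without knockout 3 (adjusted p = 0.703). It was also negative with litter as a block, at -0.27 (edgeR adjusted p = 0.997), and DESeq2 without the block gave S100a9 no p-value.

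The balance of the calprotectin transcripts separated the genotypes. Per kilobase, S100a8 stood at 0.0841, 0.4996 and 0.665 of S100a9 in the controls of litters 1 to 3 and at 3.85, 1.79 and 1.07 in their knockouts. S100a9 therefore exceeded S100a8 in every control, and S100a8 exceeded S100a9 in every knockout, although only slightly in knockout 3. Raw counts gave the same order, at 0.112 to 0.885 in controls and 1.42 to 5.11 in knockouts. A ratio of genes within a library does not depend on how libraries were scaled. The ratio of S100a8 to S100a9 was chosen after its values were seen and was not tested. The other ratios computed, of Elane, Prtn3 and Ctsg to Mpo and of Elane to Prtn3, overlapped between the genotypes. How often ratios of other genes separate the genotypes was not computed. Moreover, 3 samples against 3 cannot give an exact permutation p below 0.1.

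**Figure D3:**
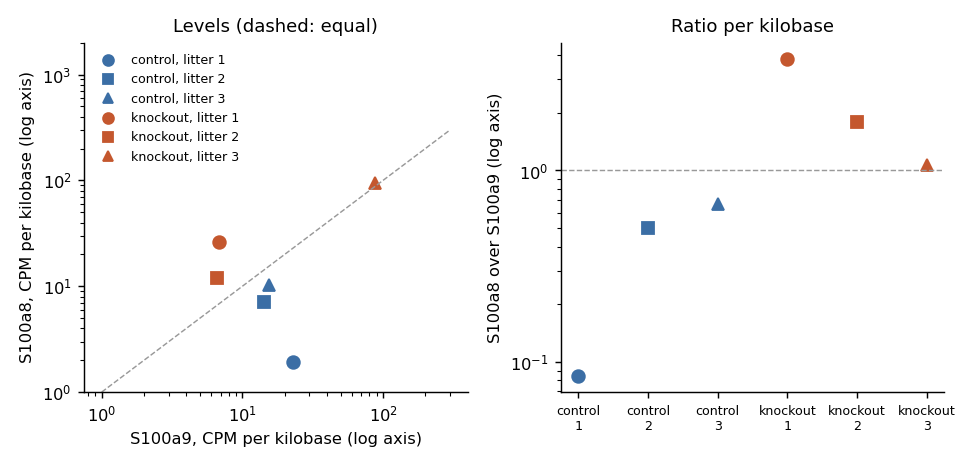
Left, S100a8 against S100a9 in CPM per kilobase on log axes, with a dashed line where they are equal; right, their ratio in each library on a log axis, by genotype (colour) and litter (symbol). The 3 controls lie below the line of equality and the 3 knockouts above it, with knockout 3 at 1.07.

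Counting 2 members, Lyz2 and S100a8, every knockout was above every control, and 6.39% of genes tested had that pattern. The same 2 members remained so without knockout 3 (12% of genes tested) and without control 1 (8.93%). Being higher in the knockout in all 3 litters held for 6 of the 7 tested members, all except S100a9, and for 12.3% of genes tested.

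Ltf, Ngp and Camp, the secondary granule genes, did not pass the count filter and were not tested. Ltf encodes lactoferrin, an iron-binding protein. It had control counts of 90, 0 and 0 (litters 1 to 3) and knockout counts of 0, 2 and 356. Ngp, a cathelin-related granule protein gene, had control counts of 440, 0 and 0 (litters 1 to 3) and knockout counts of 0, 0 and 145. Both were thus found in control 1 and knockout 3 and nearly absent from the other 4 libraries, where a count of 0 allows up to 0.0680 to 0.0827 CPM. Camp, which encodes the mouse cathelicidin, had control counts of 3, 0 and 0 (litters 1 to 3) and knockout counts of 19, 0 and 125. The summed level of these 3 genes was 18.4 CPM in control 1 and 17.9 CPM in knockout 3, and at most 0.478 CPM in any other library. Ngp made up most of that sum in control 1 (15.2 CPM). Ltf and Ngp were thus held by 1 library of each genotype, and Camp mainly by knockouts 1 and 3.

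Of all 21015 genes with a count, 16 (0.0761%) had at least 10 counts in control 1 and knockout 3 and at most 3 in each other library. Ltf and Ngp were among them, and so were Stfa2, a stefin gene of neutrophils (76 and 1036 counts), and Prg2, the eosinophil major basic protein gene (62 and 713 counts), both named after their values were seen. Jumps from nothing to many counts between libraries of the same genotype were not limited to these genes. A level of 0 in 1 library with at least 100 counts in another of its genotype was seen in 4 of the 10 members (Elane, Ltf, Ngp and Camp) and in 7.14% of genes with a count. Control 1, which held Ltf and Ngp transcripts, had the lowest primary granule sum of the 6, at 29.7 CPM.

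Other genes of the granules were followed as lists. Of 12 further genes for primary granule and lysosome-related proteins and their processing, 10 were tested. All 10 had a positive log2 fold change (50.8% of genes tested), with a median of 0.86. Without knockout 3 it was 8 of the 10 (49.4% of genes tested), with a median of 0.60. Those that turned negative were Hexa (-0.07) and Prss57 (-7.39, edgeR unadjusted p = 0.0403), named after their values were seen. Prss57 had control counts of 0, 21 and 49 (litters 1 to 3) and knockout counts of 0, 0 and 409. By edgeR with all samples 0 of the 10 passed, and 1 had an unadjusted p under 0.05 (4.26% of genes tested, counting those higher in the knockout). That gene was Srgn, which encodes serglycin, the proteoglycan that holds granule proteins, at 46.1 ± 3.76 CPM in the control group and 71.8 ± 11.9 CPM in the knockout group (log2 fold change 0.64, edgeR adjusted p = 0.751). Bpi was at 0 in all 6 libraries. Of 20 genes of secondary and tertiary granules and their membranes, 15 were tested. Of these, 11 had a positive log2 fold change (50.8% of genes tested), and the median was 1.66. Without knockout 3 it was 10 of the 15 (49.4% of genes tested), with a median of 0.36. In edgeR 4 of the 15 had an unadjusted p under 0.05, all higher in the knockout, beside 4.26% of all genes tested. Without knockout 3, 2 of the 15 had such a p and were higher in the knockout (4.23% of genes tested). Mmp25 had one too but was lower (log2 fold change -8.44, edgeR unadjusted p = 0.0008, DESeq2 adjusted p = 0.00016). With all samples the Mmp25 log2 fold change was -2.67 (edgeR adjusted p = 0.863). In edgeR 0 of the 15 passed after adjustment, with or without knockout 3.

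Those 4 were Anxa1, Cybb, Itgam and Pglyrp1. Anxa1 encodes annexin A1, a phospholipid-binding protein of granules that limits inflammation. Anxa1 had control counts of 132, 80 and 174 (litters 1 to 3) and knockout counts of 853, 760 and 1535, with no overlap (log2 fold change 3.02, SE 0.56; edgeR adjusted p = 0.564; DESeq2 adjusted p = 6.01e-05). Without knockout 3 its log2 fold change was 2.59 (edgeR adjusted p = 0.572; DESeq2 adjusted p = 0.00134). Cybb, the catalytic subunit of the phagocyte oxidase, averaged 12.05 ± 5.45 CPM in the control group and 38.2 ± 21.3 CPM in the knockout group, and was higher in 2 of 3 litters (edgeR adjusted p = 0.721). Itgam, the integrin chain CD11b, averaged 20.3 ± 9.68 and 52.9 ± 22.9 CPM (edgeR adjusted p = 0.729). Pglyrp1, a peptidoglycan-binding granule protein gene, had 1558 counts in knockout 3 and 21 to 176 elsewhere (edgeR adjusted p = 0.749).

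Markers of mature neutrophils had their highest sum in knockout 3. Ly6g and Retnlg, 2 defining markers, were at 0 in all 6 libraries, 11 of 18 markers passed the count filter, and 0 of the 11 had an edgeR unadjusted p under 0.05. With all samples 10 of the 11 had a positive log2 fold change (50.8% of genes tested) and 7 had one above 1 (13.5%). Without knockout 3 these counts were 5 (49.4% of genes tested) and 3 (11.8%) of the 11, with a median of -0.50. Their summed level was 39.1 to 62.7 CPM in controls, 36.1 and 45.9 CPM in knockouts 1 and 2, and 331 CPM in knockout 3. Stefin genes took most of the knockout 3 sum, with Stfa2l1 at 149 CPM, Stfa1 at 57.8, Stfa2 at 29.6 and Stfa3 at 10.5 CPM. Padi4 and Clec4d, present in knockouts 1 and 2, were at 0 in knockout 3. These genes were named after their values were seen. Csf3r, the receptor for granulocyte colony-stimulating factor, had 273, 552 and 489 counts in controls 1 to 3, 317 and 980 in knockouts 1 and 2, and 1 in knockout 3. The library with the most granule transcript thus had almost none of this receptor's transcript.

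**Figure D4:**
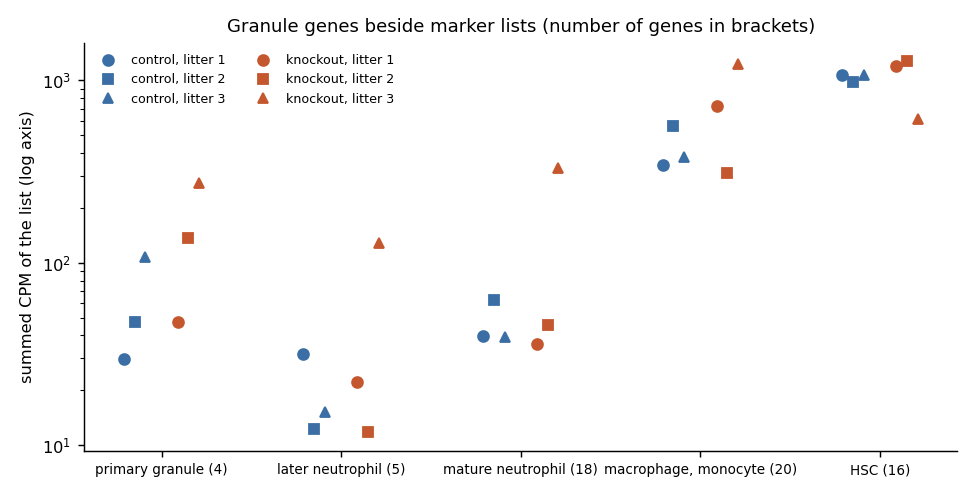
Summed CPM of 5 gene lists in each library on a log axis, by genotype (colour) and litter (symbol), with the number of genes in brackets. Knockout 3 is the highest library for the granule, mature neutrophil and macrophage lists and the lowest for the HSC list, at 612 CPM.

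Of 13 regulators of granulocyte genes, 12 were tested, and 9 of them had a positive log2 fold change (50.8% of genes tested). The median was 0.52. In edgeR 3 of the 12 (Csf1r, Csf2rb and Cebpb), all higher in the knockout, had an unadjusted p under 0.05, beside 4.26% of all genes tested, and 0 passed after adjustment. Without knockout 3 it was 1 of the 12, Csf1r, beside 4.23%. Csf1r also stood in the list of macrophage and monocyte markers. Spi1, which encodes PU.1, had close means (control counts of 1021, 597 and 1155, knockout counts of 826, 1047 and 1440; log2 fold change 0.23, edgeR adjusted p = 0.962). Cebpa, which encodes C/EBPα, had control counts of 17, 9 and 47 (litters 1 to 3) and knockout counts of 1, 300 and 499 (log2 fold change 3.56, edgeR adjusted p = 0.775). The primary granule sums in the same order were 29.7, 47.2 and 108 CPM in controls and 47.4, 136 and 275 CPM in knockouts. Knockout 1 thus had the least Cebpa, with a sum above that of control 1. Knockouts 2 and 3 had the most Cebpa and the highest sums. Cebpe, the regulator of secondary granule genes, had control counts of 0, 32 and 0 (litters 1 to 3) and knockout counts of 1, 0 and 131. Control 1 thus held Ngp and Ltf transcript with no Cebpe count, and knockout 3 held both with the most Cebpe. The part of these regulators in the granule values was not tested.

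The colony-stimulating factor receptor genes differed among themselves. Csf1r, the receptor of macrophage colony-stimulating factor, had control counts of 258, 1463 and 988 (litters 1 to 3) and knockout counts of 3008, 3352 and 4945 (log2 fold change 2.13, SE 0.53; edgeR adjusted p = 0.622; DESeq2 adjusted p = 0.00759). Without knockout 3 the Csf1r value was 1.85 (DESeq2 adjusted p = 0.0453). Csf2rb, a shared receptor chain, had 6201 counts in knockout 3 and 895 to 1570 elsewhere (edgeR adjusted p = 0.750). Gfi1, a repressor needed for neutrophil development, had control counts of 123, 419 and 450 (litters 1 to 3) and knockout counts of 834, 504 and 212 (edgeR adjusted p = 0.904).

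Genes with the most similar pattern across the 6 libraries were found among 8510 genes with a mean of at least 5 CPM. Those closest to the mean log2 CPM of the 4 primary granule genes were Zhx1, Rps6ka3, Tmem63a, Lmbr1l and Bst2, with Pearson r of 0.985 to 0.997 over 6 samples. Zhx1 stood at 43.3, 61.8 and 79.7 CPM in the controls of litters 1 to 3 and at 66.6, 93.1 and 119.9 CPM in their knockouts, so it repeated the order of litters with a smaller range. Those closest to the mean log2 CPM of the 5 later genes were Heatr2, Stfa2, Sde2, Dgkz, Gnl1 and Ola1, with r of 0.979 to 0.992. That mean includes Ltf, Ngp and Camp, which did not pass the count filter. It was highest in knockout 3 (3.77) and control 1 (1.40), as for Ltf and Ngp, whereas S100a8 was lowest in control 1. With 6 samples and 8510 candidates, such values describe likeness only. Of these genes, Stfa2 is the one in the fixed neutrophil lists.

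**Figure D5:**
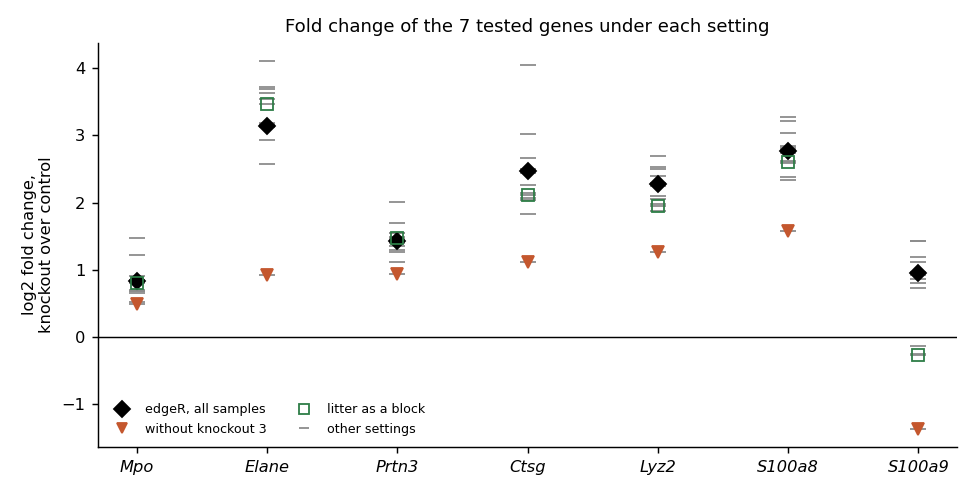
Log2 fold change of knockout over control for the 7 tested genes under every setting, with the edgeR fit of all samples as black diamonds, the fit without knockout 3 as orange triangles, the litter block as open squares and other settings as grey dashes. Leaving out knockout 3 gives the lowest value for each of the 7 genes, and S100a9 falls below 0, at -1.37.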

How the data were processed

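RNA sequencing counts of 6 samples were used, 3 per genotype, grouped by the genotype label. The deposited values are raw counts, 1 list of gene symbols for each sample. The submitters' processing notes name CASAVA 1.8.4, TopHat2, Picard 1.126, HTSeq 0.6.0, DESeq 3.0, bedtools 2.17.0 and the build mm10, with no roles. Annotation, strand setting and read length are not given in the sources used here, so reads of overlapping antisense genes (Gm11505 at Mpo, Plppr3 at Prtn3) cannot be told apart from those of the member. Per the labels' protocols, poly(A) RNA was selected in 2 rounds. No molecular tags are described, so detection floors cover counting error only. Reads given to no gene (41.01% to 50.99% of a library) stayed out of library sizes and tests.

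After filterByExpr on genotype, 13646 genes were tested, scaled with TMM (trimmed mean of M values), with the quasi-likelihood F test of edgeR 4.0.16 in R 4.3.3 on genotype alone. P-values were adjusted over all genes by Benjamini-Hochberg, with a threshold of 0.05. Alternatives used DESeq2 1.42.0, limma 3.58.1, a litter block, other scalings and filters, and left out each sample in turn. Log2 CPM has a prior count of 2, standard errors (SE) divide the fold change by the root of its F statistic, and CPM per kilobase uses the union of GENCODE M21 exons. Litters pair the samples by their labels. Deviations of litter mates from their genotype means correlated at -0.0224, -0.0752 and 0.00336 across genes. The fits were tested on simulated data. Symbols of 3 list genes were matched through RefSeq synonyms. Members and lists were chosen with earlier results of these data known. All 10 members were named, and genes of other lists were named by p (up to 5 a list), as regulators, or by likeness (6 per class, of which 1 is not reported here). P-values weigh the difference between genotypes against the spread between these samples, which was estimated in part across genes.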

Additional observations from a re-analysis of the deposited data

How the results depend on the processing

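All alternatives were planned except the count of genes whose genotypes do not overlap without knockout 3 or control 1, which stayed at 2, and DESeq2 without knockout 3, both chosen after seeing the data. The count of genes past the threshold was 0 in edgeR, with 888 at an unadjusted p under 0.05. With no low-count filter it was 1, with at least 10 counts in every sample 1, in DESeq2 138 (104 higher, 34 lower) and in DESeq2 with the litter block 277 (154 higher, 123 lower). It stayed at 0 with the litter block in edgeR (619 at an unadjusted p under 0.05), and ranged from 0 to 0 when 1 sample was left out. DESeq2 without knockout 3 gave 227, and 115 with the block. Granule genes past the threshold numbered 1 in DESeq2 and 3 in DESeq2 with the block, 0 in both without knockout 3, and 0 to 0 in edgeR with 1 sample left out. The median log2 fold change of the 4 primary granule genes stayed positive in every setting, from 0.92 to 3.03 with 1 sample left out and at 1.79 with the block. That of the later genes, over S100a8 and S100a9, was 1.86 with all samples, 1.17 with the block and 0.10 to 2.32 with 1 sample left out. The cause was not tested. Without a filter it was 1.71 over all 5. S100a9 turned negative with the block in edgeR (-0.27) and DESeq2 (-0.26), in limma-voom (-0.13) and without knockout 3 (-1.37), with a range of -1.37 to 1.43 over single samples left out. The other 6 tested genes kept a positive fold change in every setting. Scaling by library size alone moved the median of all genes from 0.01 to 0.23 and upper-quartile scaling to -0.10, with primary medians of 2.02 and 1.77. Ltf, Ngp and Camp had at most 3 counts in 4 of the 6 libraries each, too few to compare genotypes.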
